A study of Homo sapiens with 6 samples.

Results

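The genes that copy DNA and supply its building blocks were followed in UMUC3-c31 cells, a human bladder cancer line, with and without the synthetic androgen R1881. The set holds 53 genes of 18129 measured, listed by name from their known roles and chosen with earlier results of these data known. Each was read on 1 array probe set that the platform's annotation maps to that gene alone. Where a gene had several, the set with the highest mean over all 6 arrays was used. Both groups were kept for 24 h in charcoal-stripped serum, which is depleted of steroid hormones. The control group then received ethanol vehicle and the treated group 10 nM R1881, each for 24 h and with 3 biological replicates, 1 array apiece. How the c31 line was derived, or whether it is a single clone, is not stated in any label used here.

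Copying the genome begins when the origin recognition complex, CDC6 and CDT1 load the ring-shaped MCM helicase onto DNA, a step called licensing. CDC45 and the GINS complex then turn the loaded ring into an active helicase, primase and the polymerases make new strands, and a sliding clamp, PCNA, holds the polymerases on the template. Many of these genes are transcribed in waves by E2F factors as cells enter S phase, and their transcripts are widely used as a readout of proliferation.

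Values are RMA intensities on the log2 scale, and changes are R1881 minus vehicle on that scale. A gene was called changed where its limma p, adjusted over the 18129 genes with the Benjamini-Hochberg method, was under 0.05. In all, 438 genes passed (2.42%), 290 higher (1.60%) and 148 lower (0.816%). All 53 replication genes lay above the background level of 4.99, the 90th percentile of 423 olfactory receptor and keratin-associated protein genes that such cells are taken not to express. Of 13 epithelial and urothelial markers 5 lay above that level in at least 1 group, led by the keratins KRT18 and KRT8. The others of these were KRT7, GATA3 and the uroplakin gene UPK1A (5.03 in vehicle and 5.08 with R1881). EPCAM, CDH1, KRT19, KRT5, PPARG and the uroplakin genes UPK1B, UPK2 and UPK3A lay below it in both groups. KRT7 rose (5.43 to 5.83) and KRT18 fell (10.75 to 10.38). Markers of other cell types above the level in at least 1 group were 2 of 7 immune, 2 of 5 endothelial and 1 of 7 fibroblast genes. They were CD68 and CD3E, VWF and TEK, and PDGFRB. CD68 read 8.93 in vehicle and 8.69 with R1881, above KRT8 at 7.91 and 7.84. The leukocyte gene PTPRC and the endothelial genes PECAM1 and CDH5 lay below the level. The summed log2 levels ran from 29.2 to 29.5 in vehicle and from 29.3 to 29.5 with R1881 for the immune list, from 21.0 to 21.7 and from 22.4 to 23.1 for the endothelial list, and from 26.6 to 27.6 and from 26.7 to 27.0 for the fibroblast list. The endothelial sum was the one without overlap, TEK was its called gene (log2 change 1.28), and its part in the results was not tested. On the second principal component over all genes (19.6% of the variance) vehicle replicate 1 scored 11.04, away from the remaining controls at -8.21 and -6.99, and R1881 replicate 1 scored 5.69, away from -0.67 and -0.87.

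Promoter sequences are shown for the 5 replication genes that passed the threshold. They are then shown for 3 genes that hold E2F-type letters but whose levels, on the probe set used, were close to equal in both groups. Other sets of LIG1 and CLSPN, 2 of these 3, stood lower, as given below. Each runs 5′ to 3′ from 160 bases before to 10 bases after the start that RefSeq annotates (GRCh38.p14), and capitals mark E2F-type letters. The letters searched were TTTGGCGC, TTTGCCGC, TTTCCCGC and TTTCGCGC on both strands. The MCM6 window lies at chr2:135876434-135876603 (minus strand), that of GINS2 at chr16:85688945-85689114 (minus strand), that of PRIM1 at chr12:56752314-56752483 (minus strand), that of POLE2 at chr14:49688205-49688374 (minus strand) and that of PCNA at chr20:5126613-5126782 (minus strand).
MCM6: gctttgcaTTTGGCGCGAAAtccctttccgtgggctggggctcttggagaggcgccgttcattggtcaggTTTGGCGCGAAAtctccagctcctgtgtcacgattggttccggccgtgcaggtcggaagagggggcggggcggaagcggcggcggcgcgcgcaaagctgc
GINS2: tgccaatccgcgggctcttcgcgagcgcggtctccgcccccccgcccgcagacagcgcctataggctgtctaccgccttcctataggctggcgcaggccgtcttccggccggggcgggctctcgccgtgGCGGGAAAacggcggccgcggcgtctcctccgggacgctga
PRIM1: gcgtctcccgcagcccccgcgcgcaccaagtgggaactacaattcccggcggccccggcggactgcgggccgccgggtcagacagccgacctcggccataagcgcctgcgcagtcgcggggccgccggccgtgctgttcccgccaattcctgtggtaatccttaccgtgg
POLE2: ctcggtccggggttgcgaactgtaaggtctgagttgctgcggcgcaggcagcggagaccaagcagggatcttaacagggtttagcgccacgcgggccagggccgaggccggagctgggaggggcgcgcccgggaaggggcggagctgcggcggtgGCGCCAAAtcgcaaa
PCNA: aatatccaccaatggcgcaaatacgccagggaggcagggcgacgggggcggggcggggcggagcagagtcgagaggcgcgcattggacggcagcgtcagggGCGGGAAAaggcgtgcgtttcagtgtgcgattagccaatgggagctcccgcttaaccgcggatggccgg
The MCM6 stretch holds the letters as 2 copies of an identical run, each read on both strands, so that 4 matches overlap in pairs. GINS2, POLE2 and PCNA hold 1 match each. PRIM1 holds none in this window or in the whole 300 bases. PCNA has 2 annotated starts, and the one with the match is shown.

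The next windows belong to CLSPN at chr1:35769969-35770138 (minus strand), LIG1 at chr19:48170335-48170504 (minus strand) and POLE at chr12:132687333-132687502 (minus strand).
CLSPN: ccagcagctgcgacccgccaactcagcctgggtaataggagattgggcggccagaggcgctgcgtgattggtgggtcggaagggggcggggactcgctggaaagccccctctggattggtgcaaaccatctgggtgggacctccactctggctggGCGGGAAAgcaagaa
LIG1: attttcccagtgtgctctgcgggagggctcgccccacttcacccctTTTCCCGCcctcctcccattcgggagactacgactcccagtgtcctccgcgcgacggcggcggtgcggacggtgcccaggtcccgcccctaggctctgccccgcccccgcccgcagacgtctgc
POLE: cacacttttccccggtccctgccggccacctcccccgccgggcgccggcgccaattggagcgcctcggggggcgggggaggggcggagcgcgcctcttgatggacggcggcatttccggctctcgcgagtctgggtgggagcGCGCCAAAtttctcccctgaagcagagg
Each holds 1 match. Of the 53 genes, 47 matched an entry of the RefSeq promoter table by symbol, with 61 promoters of 300 bases (250 before to 50 after the start). MCM4, MCM5, GINS4, POLD3, RPA2 and RPA3 did not. E2F-type letters were present for 23 of the 47 genes, or 37.7% of their 61 promoters, against 3.31% of all 35116 promoters in the table and 4.10% of the 22199 promoters of protein-coding genes. The matched genes included all 4 genes of the MCM2-7 ring that the table holds, all 4 licensing genes (CDC6, CDT1, GMNN and DTL), 3 of 5 helicase activation genes and 4 of 7 polymerase and primase genes. They included 1 of 6 origin recognition genes (ORC3) and none of the 3 genes for chromatin assembly and histone mRNA. The median change was -0.16 over the 23 genes with the letters (from -0.33 to 0.01) and -0.14 over the 24 without (from -0.26 to 0.04), and these ranges overlap nearly throughout. Such a match is a description of letters and not a binding site.

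With R1881, 5 of the 53 replication genes fell, and the median change over the 53 was -0.16, which is 10.3% below vehicle, beside a median of 0 over all genes and of -0.01 over the 11049 genes above background. The 5 were MCM6, GINS2, PRIM1, POLE2 and PCNA, beside 0.816% of all genes called lower. Each of them missed the threshold when any 1 array was left out, and when every probe set was tested. None rose (1.60% of all genes), and the remaining 48 did not pass the threshold. The arrays of the groups did not overlap, with R1881 lower, for 39 of the 53 genes (9.93% of all genes), and for none with R1881 higher. An unadjusted p under 0.05 with R1881 lower was reached by 35 (7.19% of all genes). By sign alone, 50 stood lower (48.7% of all genes), and CLSPN, POLE and RPA1 stood higher, by at most 0.04. The set was chosen with earlier results of these data known, so these shares are not an independent comparison. In RNA from a whole culture, fewer cells in S phase and less RNA per cell cannot be told apart.

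The shift was alike in each treated array. Taken against the vehicle mean of each gene, the median over the 53 genes was -0.15 in R1881 replicate 1, -0.17 in replicate 2 and -0.14 in replicate 3, and 0.02, -0.003 and 0 in the vehicle arrays. Without any 1 array the median change ran from -0.16 to -0.14, and it was -0.15 without vehicle replicate 1. Sizes were small throughout: the change furthest below 0 was that of RFC3 at -0.33, or 0.796 times vehicle. Among genes above background, 8.74% had a change at or below the median of the replication genes.

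**Figure D1:**
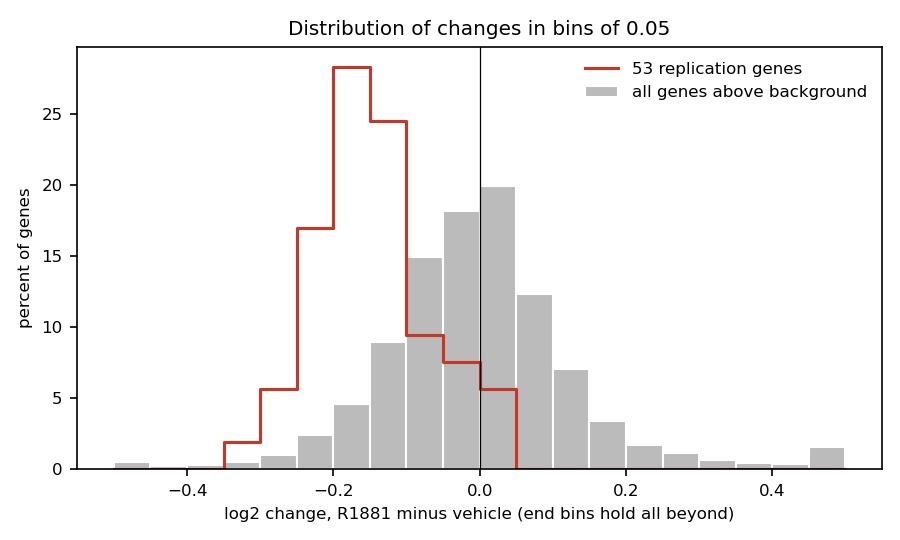
Share of genes, in percent, by log2 change (R1881 minus vehicle) in bins of 0.05; grey bars are the 11049 genes above background and the red outline the 53 replication genes. The outline peaks in the bin from -0.2 to -0.15 with 28.3% of the replication genes, where the bars hold 4.61% of genes, and has nothing above 0.05.

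**Figure D2:**
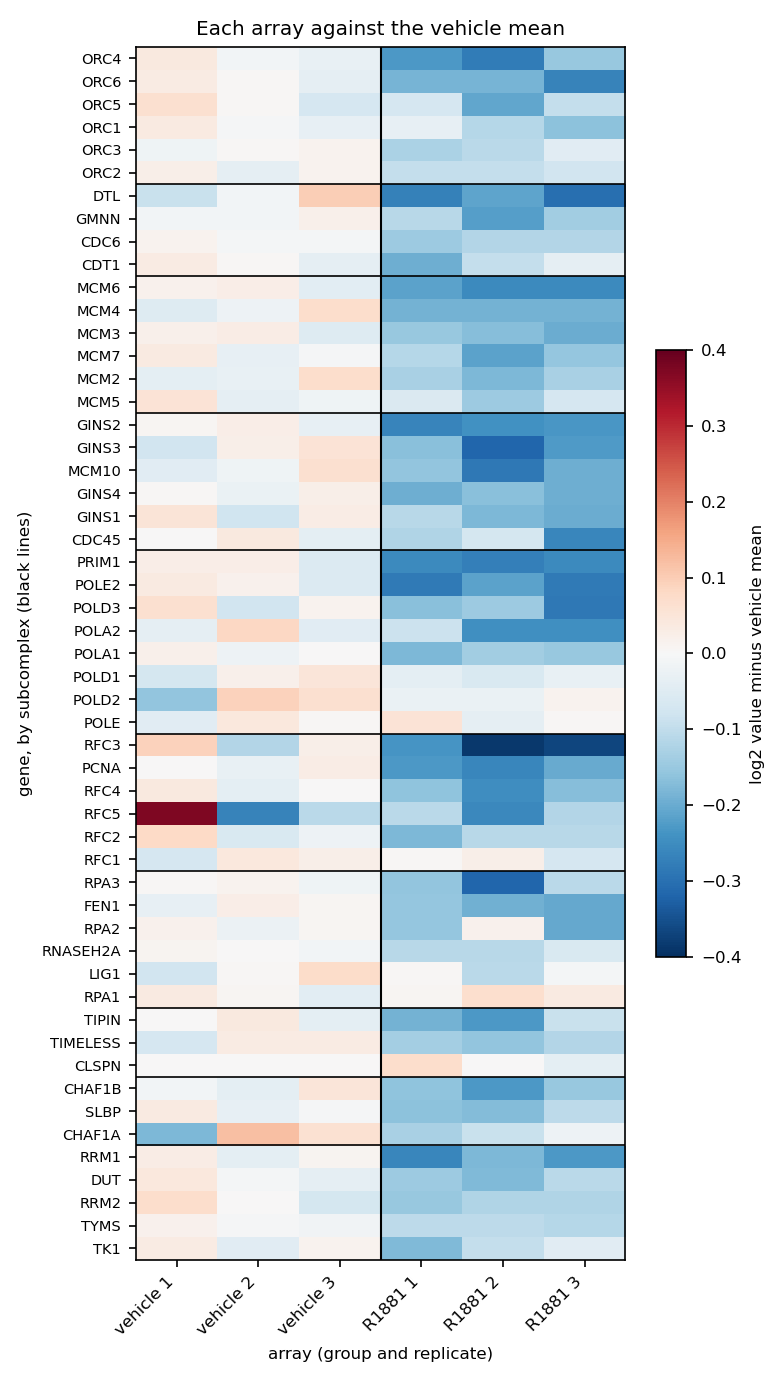
Each row is a replication gene and each column an array; colour gives the log2 value minus the gene's vehicle mean, and black lines separate the subcomplexes and the groups. The R1881 columns are blue for most genes, while RFC5 stands out in vehicle replicate 1.

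The origin recognition complex marks the sites where licensing starts, and none of its 6 genes passed the threshold. Their median was -0.11. ORC6, the smallest subunit, read 8.59, 8.56 and 8.52 in the vehicle arrays and 8.37, 8.37 and 8.29 with R1881, so that every treated array lay below every control. Its change was -0.21 ± 0.05 (SE) with a limma adjusted p of 0.0781. ORC4, one of the subunits with an ATPase fold, read 8.87, 8.82 and 8.80 against 8.60, 8.55 and 8.68, a change of -0.22 ± 0.05 (adjusted p = 0.0953). The groups did not overlap there either. ORC2 and ORC3, which also lie in the core of the complex, were at -0.09 each without overlap. ORC5 (-0.12, and -0.082 without R1881 replicate 2) and ORC1 (-0.10), the subunit that comes and goes with the cell cycle in human cells, had overlapping arrays.

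Loading is limited by CDC6 and CDT1 on one side and by the CDT1 inhibitor geminin (GMNN) and DTL on the other, DTL being the adaptor of the ubiquitin ligase that destroys CDT1 during S phase. None of the 4 genes passed, and both sides stood lower, with a median of -0.14. DTL read 8.48, 8.56 and 8.67 in vehicle and 8.30, 8.36 and 8.27 with R1881, a change of -0.26 ± 0.06 (adjusted p = 0.0968). The groups were apart. GMNN was at -0.16 ± 0.05 and CDC6 at -0.13 ± 0.04, both without overlap. CDT1 was at -0.11 ± 0.05 (-0.067 without R1881 replicate 1), and its R1881 replicate 3 (7.83) equalled the lowest vehicle array.

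The MCM2-7 ring is the helicase core, and all 6 of its genes had every R1881 array below every vehicle array. The same held for all 6 helicase activation genes, 39 of the 53 replication genes and 9.93% of all genes. MCM6 fell: it read 9.44, 9.45 and 9.38 in vehicle and 9.21, 9.17 and 9.17 with R1881. The means were 9.42 ± 0.04 and 9.18 ± 0.02 (SD, n = 3), a change of -0.24 ± 0.04 (SE), or 0.847 times vehicle with a 95% confidence interval of 0.789 to 0.909 (adjusted p = 0.0399). The gap between groups was thus several times the spread within them. The other subunits did not pass and followed in the order MCM4 (-0.19), MCM3 (-0.17), MCM7 (-0.16), MCM2 (-0.15) and MCM5 (-0.09). From MCM4 to MCM2 these neighbours differ by less than their standard errors of 0.04 to 0.05. The 95% confidence interval of MCM5 (-0.21 to 0.03) covers their changes too, and differences between subunits were not tested. MCM4 read 10.94 in all 3 R1881 arrays against 11.08, 11.11 and 11.20 in vehicle. The median of the ring was -0.17.

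Of the genes that turn the ring into a moving helicase, GINS2 fell. It encodes a subunit of the GINS complex and read 7.87, 7.89 and 7.83 in vehicle against 7.60, 7.62 and 7.63 with R1881. The means were 7.86 ± 0.03 and 7.62 ± 0.02 (SD, n = 3), the change -0.25 ± 0.04 (SE), or 0.843 times vehicle with an interval of 0.787 to 0.902, and the adjusted p 0.0308. The other GINS genes did not pass, at -0.24 ± 0.06 for GINS3, -0.19 ± 0.04 for GINS4 (adjusted p = 0.0809) and -0.16 ± 0.05 for GINS1. MCM10, which helps to start the helicase, stood at -0.21 ± 0.05 and CDC45 at -0.15 ± 0.06 (-0.095 without R1881 replicate 3). None of these 6 genes had overlapping groups, R1881 being lower (9.93% of all genes), and their median was -0.20. The medians of the 10 subcomplexes ran from -0.20 to -0.10, and differences between them were not tested. With probe sets averaged per gene they ran from -0.23 to -0.08, the sliding clamp and its loader moving from -0.18 to -0.11 and fork protection from -0.14 to -0.08. These averages include sets below background, of RFC3 (0.04 and 0.23), RFC4 (-0.12 and -0.01) and TIMELESS (-0.02). They also include a PCNA set close above background (0).

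Strand synthesis held both called genes and genes at 0. PRIM1, the catalytic subunit of primase, which lays down the RNA primers, read 10.20, 10.20 and 10.12 in vehicle and 9.92, 9.90 and 9.92 with R1881. It fell from 10.17 ± 0.05 to 9.91 ± 0.01 (SD, n = 3), a change of -0.26 ± 0.04 (SE), or 0.835 times vehicle with an interval of 0.777 to 0.897 (adjusted p = 0.0315). POLE2, the accessory subunit of polymerase epsilon, which copies the leading strand, read 8.59, 8.57 and 8.50 against 8.27, 8.34 and 8.27. It fell by 0.26 ± 0.05 as well, from 8.55 ± 0.05 to 8.29 ± 0.04 (SD, n = 3), with an adjusted p of 0.0415. Both genes kept the groups well apart.

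POLE, the catalytic subunit of the same enzyme, read 8.27, 8.36 and 8.32 in vehicle and 8.37, 8.28 and 8.32 with R1881. Its groups overlapped fully, with a change of 0.01 and a 95% confidence interval of -0.11 to 0.12. Polymerase delta, which makes the lagging strand, was alike in having unequal members. Its catalytic subunit gene POLD1 was at -0.04 (interval -0.16 to 0.07) and the second subunit POLD2 at -0.01 (-0.18 to 0.16), both with overlap. POLD3, another subunit, was at -0.20 ± 0.06 without overlap. Polymerase alpha, which extends the primers, had its catalytic gene POLA1 at -0.16 ± 0.04 and POLA2 at -0.19 ± 0.06, neither past the threshold and both without overlap. The differences between subunits were not tested.

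PCNA, the sliding clamp, read 12.30, 12.27 and 12.33 in vehicle and 12.07, 12.04 and 12.10 with R1881. It fell from 12.30 ± 0.03 to 12.07 ± 0.03 (SD, n = 3), a change of -0.23 ± 0.04 (SE), or 0.853 times vehicle with an interval of 0.795 to 0.915 (adjusted p = 0.0458). PCNA and TYMS were the 2 genes above 12 in vehicle, near the bright end of the scale. RFC1 to RFC5 form the loader that opens the clamp, with RFC1 as its large subunit. RFC3 read 9.15, 8.94 and 9.08 against 8.82, 8.67 and 8.69, a change of -0.33 ± 0.07 that did not pass (adjusted p = 0.0744) although the groups were apart. RFC4 was at -0.19 ± 0.05 and RFC2 at -0.13 ± 0.05, both without overlap. RFC1 read 8.32, 8.43 and 8.41 against 8.39, 8.41 and 8.32 and so showed no separation, at -0.01 with an interval of -0.13 to 0.11.

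RFC5 depended on which probe set was read. The set used, whose identifier marks it as one that may match several transcripts, gave 10.26, 9.62 and 9.78 in vehicle and 9.78, 9.63 and 9.77 with R1881, so that vehicle replicate 1 stood apart and the groups overlapped (-0.16 ± 0.15). Without vehicle replicate 1 the change on this set was 0.03. A second set of nearly equal brightness read 9.92, 9.88 and 9.93 against 9.54, 9.67 and 9.61. There RFC5 fell, with a change of -0.30 ± 0.05 and an adjusted p of 0.0432 when all 44898 single-gene probe sets were tested. The remaining 2 sets were at -0.25 and -0.23.

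**Figure D3:**
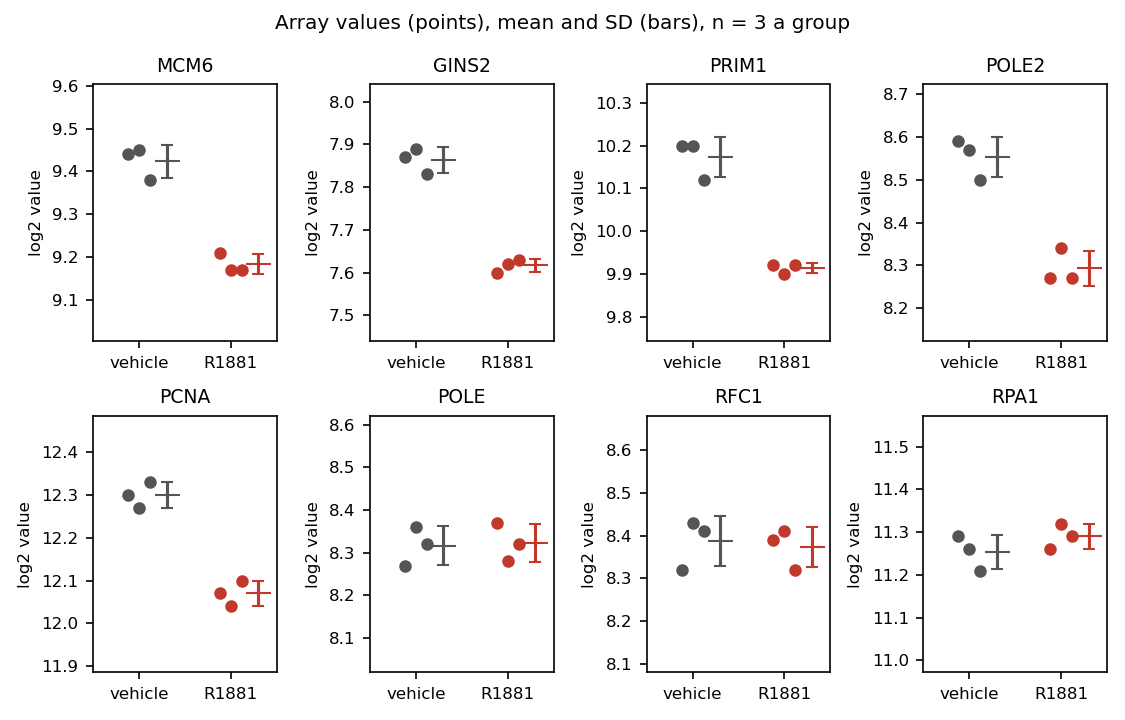
Log2 values in each array (points) with the mean and SD (bars, n = 3) for the 5 genes that fell, MCM6, GINS2, PRIM1, POLE2 and PCNA, and for POLE, RFC1 and RPA1. Every panel spans 0.6 log2 units; the R1881 points lie below all vehicle points in the first 5 panels and among them or slightly above in the last 3.

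Single-strand binding and the joining of Okazaki fragments gave no call among 6 genes, with a median of -0.10. FEN1, the flap nuclease that trims the fragments, came closest: it read 10.09, 10.15 and 10.13 in vehicle and 9.97, 9.93 and 9.92 with R1881, a change of -0.18 ± 0.04 (adjusted p = 0.0968). The groups did not overlap. RPA3, the small subunit of the single-strand binding protein, was at -0.19 ± 0.06 and RNASEH2A, a nuclease that removes RNA from DNA, at -0.09 ± 0.04, also without overlap. RPA2 was at -0.11 ± 0.06 with overlap, and at -0.18 without R1881 replicate 2 and -0.068 without replicate 3. On its other sets, with vehicle means of 9.45 and 8.78, RPA2 was at -0.18 and -0.26 without overlap. The large subunit RPA1 read 11.29, 11.26 and 11.21 against 11.26, 11.32 and 11.29, a change of 0.04 (interval -0.07 to 0.14), and LIG1, the ligase of the fragments, was at -0.04 (-0.17 to 0.10). Both overlapped between groups.

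At the fork itself, TIPIN read 9.0, 9.04 and 8.96 against 8.81, 8.77 and 8.91, a change of -0.17 ± 0.05 (adjusted p = 0.207). Its partner TIMELESS, with which it steadies the fork, was at -0.14 ± 0.05, and both had separate groups. CLSPN, the claspin mediator of the replication checkpoint, was dim, at 5.65 in all 3 vehicle arrays and 5.72, 5.65 and 5.61 with R1881. Its change was 0.01 with an interval of -0.10 to 0.12. CHAF1B and CHAF1A encode the chaperone that places histones behind the fork, and SLBP binds replication-dependent histone mRNA. CHAF1B read 6.98, 6.95 and 7.04 against 6.83, 6.76 and 6.84 (-0.18 ± 0.05, adjusted p = 0.141) and SLBP was at -0.15 ± 0.04, with groups apart in both. CHAF1A was at -0.08 ± 0.08, with vehicle replicate 1 (8.71) below all R1881 arrays. It was at -0.17 without that array and at -0.02 without vehicle replicate 2.

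None of the 5 genes of deoxynucleotide supply passed, and all stood lower, with a median of -0.13. RRM1 encodes the large subunit of ribonucleotide reductase, which makes deoxynucleotides from ribonucleotides. It read 10.69, 10.62 and 10.67 in vehicle and 10.40, 10.48 and 10.43 with R1881, a change of -0.22 ± 0.05 (adjusted p = 0.0623) with the groups apart. RRM2, the small and cell-cycle-regulated subunit, was at -0.13 ± 0.05. DUT, which removes dUTP, was at -0.14 ± 0.05. TYMS, thymidylate synthase, read 12.17, 12.15 and 12.14 against 12.05, 12.05 and 12.04, a change of -0.11 ± 0.04 and the tightest arrays of this group. RRM2, DUT and TYMS had separate groups. TK1, the salvage thymidine kinase, was at -0.11 ± 0.05, and its R1881 replicate 3 (9.85) equalled the lowest vehicle array.

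**Figure D4:**
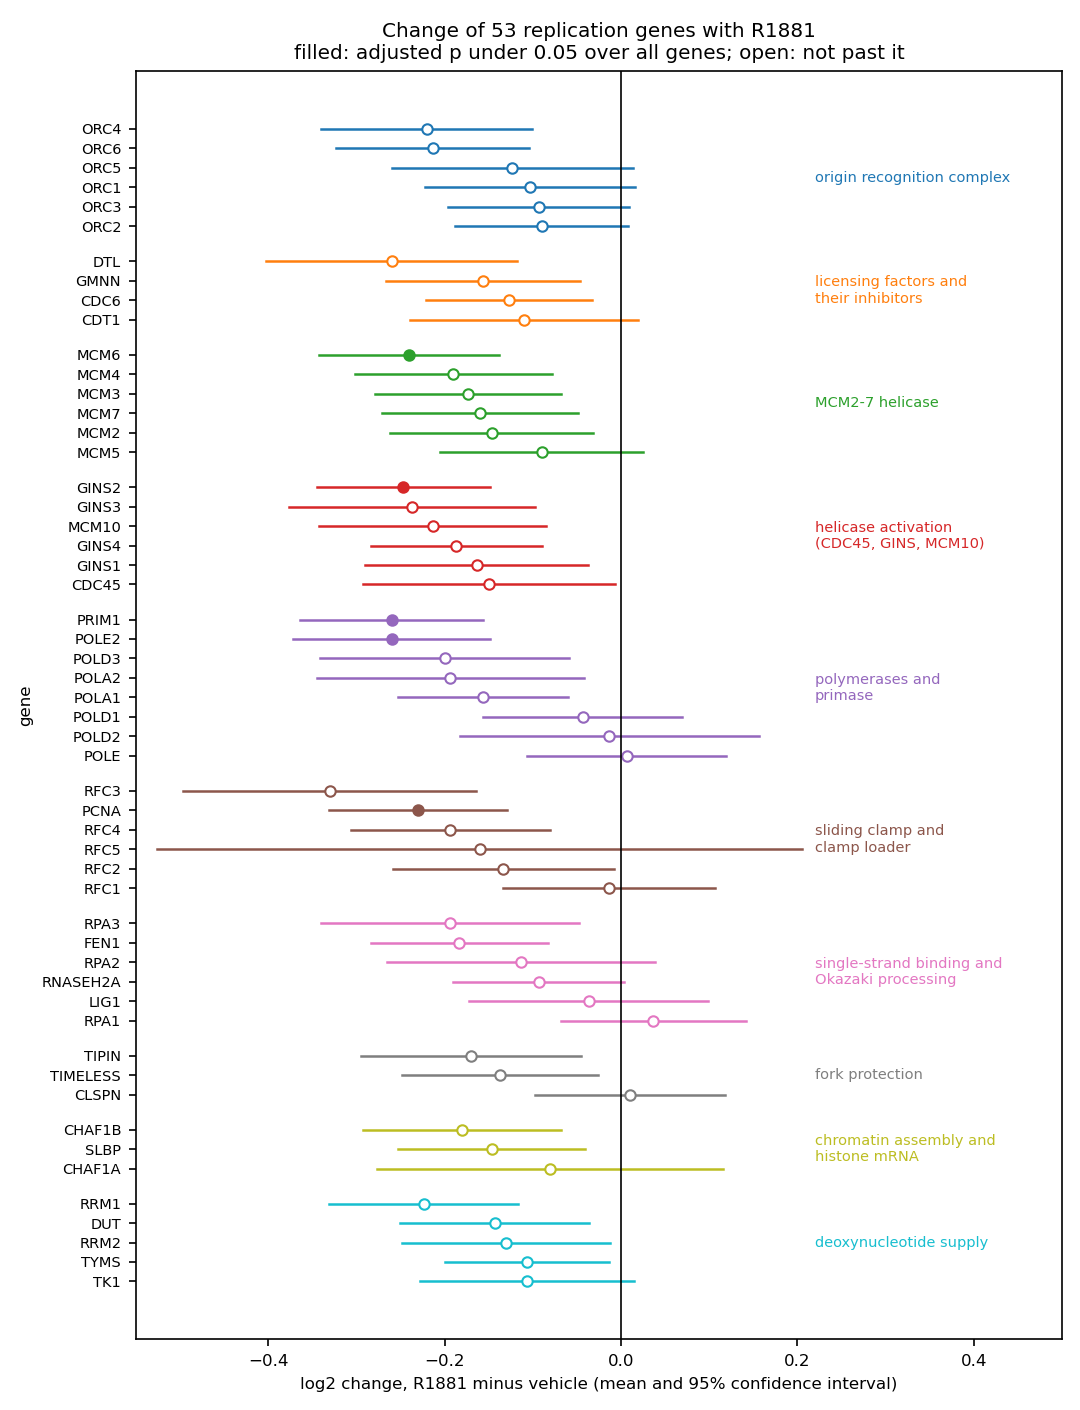
Log2 change (R1881 minus vehicle, horizontal axis) with its 95% confidence interval from limma for the 53 replication genes, grouped and coloured by subcomplex; filled points passed the threshold over all genes. The 5 filled points lie between -0.26 and -0.23, and POLE, RPA1 and CLSPN lie just above 0.

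The 53 genes had 136 single-gene sets, of which 128 lay above background in at least 1 group. Of these 117 were lower by sign with R1881, 9 higher and 2 at 0, with a median of -0.16. Of the 37 genes with more than 1 such set, 28 had every one lower. When each single-gene set was tested on its own, 4 of the 136 sets passed, all lower (0.468% of all single-gene sets): 1 each for CDC45 (-0.31 ± 0.05, adjusted p = 0.0249), RFC3 (-0.34 ± 0.05, 0.0312), RFC5 and DTL (-0.31 ± 0.06, 0.0457). None was the set used above, and the 5 genes called above did not pass there, with an adjusted p of 0.0530 to 0.0772. TYMS was lower on its second set, at -0.21 ± 0.04, than on its brightest. Some well-expressed sets stood near 0 where the set used was lower. POLA2 was at 0.01 on a set with a vehicle mean of 7.29 (-0.19 on the set used), CDT1 at 0.02 and -0.04 (-0.11) and ORC2 at 0.01 and -0.04 (-0.09). ORC4 was at -0.03 on a dimmer set and -0.23 on another (-0.22). PCNA was at 0 on its second set, which read 5.97, 5.83 and 5.66 in vehicle and 5.73, 5.90 and 5.83 with R1881, close above background. Sets of one gene share the RNA of the array and are not independent. The 8 sets below background had a median of -0.01.

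**Figure D5:**
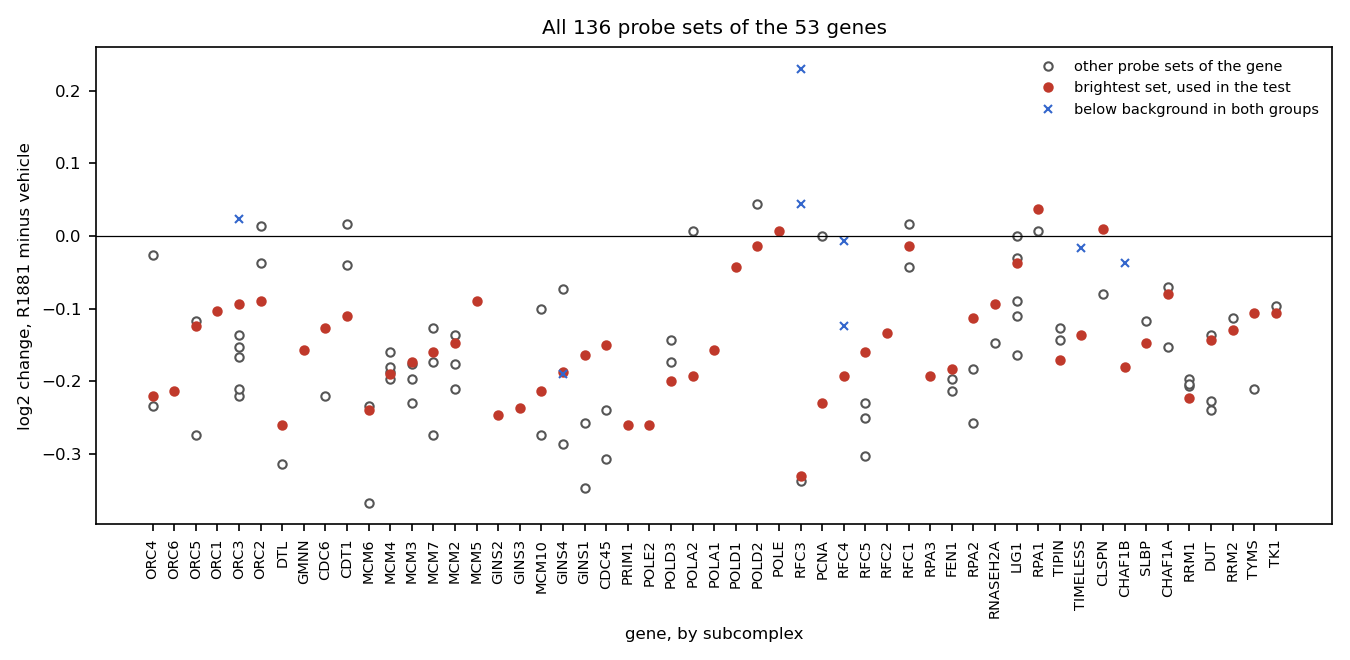
Log2 change (R1881 minus vehicle, vertical axis) of all 136 single-gene probe sets by gene; red points are the sets used in the tests, open points other sets and crosses sets below background in both groups. Most points lie between -0.3 and -0.05, and 9 sets above background lie above 0.

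The number of calls moved in both directions with the processing. MCM6, GINS2, PRIM1, POLE2 and PCNA each missed the threshold when 1 array was left out, whichever it was, with limma adjusted p-values from 0.0650 to 0.172, and no other replication gene passed. The share of all genes called lower was then 0.397%, 0.336% and 0.292% without vehicle replicates 1, 2 and 3, and 0.331%, 0.314% and 0.298% without R1881 replicates 1, 2 and 3. With arrays re-centred on their median the same 5 genes were called (0.872% of all genes). POLE2 lost its call after another quantile normalization (adjusted p = 0.0503), which left 4 (0.767%). With the mean of all its probe sets PCNA lost its call (0.317), while 9 replication genes were called (1.01%). Conversely, 17 replication genes were lower when genes below background were left out of the test (3.02% of genes tested) and 22 under a trended, robust prior (2.32%), and in each case these included the 5. Both held MCM3, MCM4, GINS4, ORC4, ORC6, POLA1, RFC3, RFC4, FEN1, DTL and RRM1 besides the 5.

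Genes around this set were read from lists written from general knowledge, also with earlier results of these data known. Of 43 other replication factors, among them the DBF4 and CDC7 kinase that fires origins, none passed in either direction. Their median was -0.12, 16 had an unadjusted p under 0.05 with R1881 lower (7.19% of all genes) and 1 with R1881 higher by limma, and 17 had every R1881 array below every vehicle array (9.93% of all genes). Of 31 measured enzymes of purine, pyrimidine and folate metabolism outside the set none passed, and their median was -0.08. By limma 6 were lower and 1 higher at an unadjusted p under 0.05 (7.19% lower over all genes). Every R1881 array lay below every vehicle array for 12 of them and above for 2 (1801 and 1547 of the 18129 genes).

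Of 26 genes of E2F control and entry into S phase, 1 rose (1.60% of all genes) and 1 fell (0.816%), and their median was -0.07. The arrays did not overlap for 9 of them with R1881 lower and for 2 with R1881 higher (1801 and 1547 of the 18129 genes). CDKN1A, the p21 inhibitor of cyclin-dependent kinases and of PCNA, read 9.35, 9.29 and 9.24 in vehicle and 9.71, 9.73 and 9.71 with R1881. It rose by 0.42 ± 0.05 (adjusted p = 0.00492) and passed without any 1 array (largest adjusted p 0.0341). E2F8, a repressor of the E2F family that is itself induced in S phase, read 7.59, 7.63 and 7.78 against 7.29, 7.21 and 7.35. It fell by 0.38 ± 0.07 (adjusted p = 0.0336) but did not pass without any 1 array (0.0660 to 0.138).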

How the data were processed

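RNA from 6 samples was hybridised to Affymetrix arrays, 1 per sample. The authors deposited 1 log2 value per probe set and array, and the submitters' processing notes name RMA, with no version. Since RMA gives all arrays one distribution, a shift of all genes together would not be seen. The values have 2 decimals, and 3 arrays per group limit their precision.

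Of 49193 probe sets 44898 had 1 gene symbol. They gave 18129 genes, each on its set with the highest mean. R1881 was compared with vehicle using limma 3.58.1 in R 4.3.3 (lmFit and eBayes, no trend, no block), two-sided. The fit was tested on simulated data before use. It recovered 51% of simulated log2 changes of size 0.3 and 92% of those of size 0.5, with 2.72% of calls false. The simulated noise was normal, independent between arrays and of the spread that limma had estimated for each gene. These rates describe data of that kind only. Most changes of the replication genes were smaller than 0.3, so genes that did not pass may still have changed. For 1 gene, 3 arrays against 3 cannot give an exact permutation p below 0.10. Sets of 18 of the 53 genes carry an s or x in their identifier and may match several transcripts. That replicates came from separate cultures rests on the design text alone.

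The members and lists were chosen with earlier results of these data known. All 53 genes could be named, with full statistics for those past the threshold and for the member with the smallest p of each subcomplex. Of other pathway lists, members past the threshold could be named. Alternatives were arrays re-centred, another quantile normalization, no dim genes, another prior, a replicate block, every probe set or the mean of a gene's sets, and omission of each array in turn. E2F-type letters were written from general knowledge and searched in RefSeq promoters.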

Additional observations from a re-analysis of the deposited data

How the results depend on the processing

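The median over the 53 genes ran from -0.167 with re-centred arrays to -0.135 without R1881 replicate 2, and from -0.162 to -0.135 without any 1 array. The count of replication genes called lower was 5. It became 17 without genes below background, 22 under a trended robust prior, 9 with probe sets averaged per gene and 0 to 0 without any 1 array. With every probe set tested it was 0 on the sets used, while 4 other sets of these genes passed. Over all genes, the count of 438 became 757 without genes below background, 895 under the trended robust prior and 209 to 270 without any 1 array. With every probe set tested, 722 passed, a count of probe sets and not of genes. For the 3 other pathway lists together, 2 of 100 measured genes were called, in either direction (438 of 18129 over all genes). The count became 5 with re-centred arrays (435 over all genes) and 10 without dim genes (757 of 11049). It was 15 under the trended prior (895 of 18129) and 8 with the mean of probe sets (470). Without any 1 array it was 1 (209 to 270). These counts do not separate higher from lower. Without genes below background limma was fitted anew, so that its prior and the adjustment both differed. The causes of the differences between settings were not tested.

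With the replicate block the counts were 222 over all genes (52 lower), 0 replication genes (adjusted p of 0.115 to 0.125 for the 5) and 1 other pathway gene. The labels do not say that equal numbers mark a shared culture or day. Deviations of same-numbered arrays correlated at 0.09, 0.06 and 0.03, and 6 of 6 arrays correlated best with their own number, a hint from the data and not the design. None was over 0.1. The main fit used no block because the labels do not state a pairing, and these correlations do not settle whether there is one.

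Genes near 0 changed sign. POLD2 was at 0.0014 after another quantile normalization and 0.015 with the mean of probe sets, CLSPN at -0.0028 and -0.035, and POLE at -0.0033 with re-centred arrays. Without 1 array, POLD2 ran from -0.092 to 0.033, POLE from -0.017 to 0.028, RFC1 from -0.047 to 0.013, CLSPN from -0.02 to 0.035 and RFC5 from -0.29 to 0.027. No call rested on these. Signal over background is known only through the dim gene families, and CLSPN lay closest to it.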

Other observations

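The letters CCAAT, bound by NF-Y, were searched on both strands in the same 300-base promoters. They were present for 30 of the 47 replication genes in the table, or 57.4% of their 61 promoters, against 34.6% of all 35116 promoters. E2F-type letters and CCAAT stood together in 1 promoter for 13 genes, MCM6, GINS2 and PCNA among them, and for CLSPN and POLE too. They shared a base in 1 pair of matches. The median change was -0.15 over the 30 genes with CCAAT and -0.15 over the 17 without. The promoters of the replication genes had a median GC content of 65.7%, against 58.7% over all promoters and 62.3% over those of protein-coding genes.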
